A study of Mus musculus with 14 samples.

Results

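Interferon-stimulated genes are genes whose transcription is switched on by interferons, and 35 of them were followed in effector CD8+ T cells of mice. The members were listed by name: 27 are genes induced above all by type I interferons and 8 are genes induced above all by interferon-gamma, although Aim2, Parp9, Parp14 and Samhd1, placed with type I, respond to both. Of the 35 listed genes, 31 had a probe set of their own on the array, 25 of type I and 6 of interferon-gamma type, against 19937 genes in all. All 31 passed the filter on low signals, as did 14438 genes in all. The probe sets of Isg15, Gbp2 and Igtp were each shared with another gene, and Ifi44 was not listed in the probe annotation, so these 4 were not measured.

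The study asked how cells with and without Id2 differ during infection. Its 14 arrays held RNA of OT-I CD8+ T cells, which carry a transgenic receptor for a peptide of ovalbumin, sorted on day 6 after infection with Listeria that expresses ovalbumin. Wild-type (WT) cells with high KLRG1, a surface receptor of short-lived effector cells, had 3 arrays (WT KLRG1hi) and WT cells with low KLRG1 had 5 (WT KLRG1lo). KLRG1lo cells of Id2KO, BimKO and Id2KOBimKO donors had 2 arrays each. In every group the donor cells came from fetal liver chimeras on a C57BL/6J background and were transferred into congenic recipients. For the Id2KOBimKO arrays the source label does not name OT-I, and no label says whether replicates came from separate mice, so the p-values measure only the spread between these samples. Id2 is an inhibitor of E protein transcription factors, and Bim, encoded by Bcl2l11, is a promoter of cell death.

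Type I interferons bind the receptor made of IFNAR1 and IFNAR2, and the kinases JAK1 and TYK2 then switch on a complex that includes STAT2 and IRF9 and binds the interferon-stimulated response element (ISRE). Interferon-gamma, which effector CD8+ T cells themselves secrete, acts through IFNGR1, IFNGR2, JAK1 and JAK2, and its target genes carry the gamma-activated site (GAS) or respond to IRF1. In infected tissue both kinds of interferon reach T cells, whose type I response covers antiviral enzymes and sensors of foreign nucleic acid, while the gamma response covers guanosine triphosphatases and the machinery that cuts and loads peptides for MHC class I.

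Among the members, only Aim2 and Rtp4 passed the adjusted p threshold of 0.05 in the fit to all arrays. Aim2 held neither element in the bases searched, and Rtp4 had no promoter window. The promoters shown are those of 4 other members named below, which hold an ISRE or a GAS but did not pass in that fit. Each is the 250 bases before the transcript start in RefSeq (GRCm38.p6), 5′ to 3′ on the gene's strand, with the ISRE or GAS in capitals. They are Rsad2 (chr12:26456453-26456702, minus strand), Oas3 (chr5:120777660-120777909, minus strand), Psmb8 (chr17:34197945-34198194, plus strand) and Irf1 (chr11:53769764-53770013, plus strand).
Rsad2: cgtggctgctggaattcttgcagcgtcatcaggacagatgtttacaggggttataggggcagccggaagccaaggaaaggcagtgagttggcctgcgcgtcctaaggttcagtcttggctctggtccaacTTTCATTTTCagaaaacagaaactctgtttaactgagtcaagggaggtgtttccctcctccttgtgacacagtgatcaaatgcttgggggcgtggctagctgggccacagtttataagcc
Oas3: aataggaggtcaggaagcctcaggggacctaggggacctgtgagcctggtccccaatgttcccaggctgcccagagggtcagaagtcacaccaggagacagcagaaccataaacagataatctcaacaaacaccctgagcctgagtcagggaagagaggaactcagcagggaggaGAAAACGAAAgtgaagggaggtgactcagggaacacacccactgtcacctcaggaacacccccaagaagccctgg
Psmb8: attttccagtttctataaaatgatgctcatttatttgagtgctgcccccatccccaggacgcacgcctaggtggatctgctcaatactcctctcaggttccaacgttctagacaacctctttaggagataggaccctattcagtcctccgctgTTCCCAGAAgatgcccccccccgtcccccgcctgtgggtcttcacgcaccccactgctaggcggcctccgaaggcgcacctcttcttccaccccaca
Irf1: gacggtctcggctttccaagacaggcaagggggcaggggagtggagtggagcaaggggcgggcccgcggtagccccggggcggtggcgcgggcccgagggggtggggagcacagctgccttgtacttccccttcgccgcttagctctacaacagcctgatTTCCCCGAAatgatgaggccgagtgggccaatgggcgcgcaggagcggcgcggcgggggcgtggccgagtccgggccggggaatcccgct

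The ISRE was searched as a pair of GAAA separated by any 2 bases and the GAS as TTCNNNGAA on both strands of the window from 250 bases before to 50 bases after the start, and the motifs can share bases. A window was found for 27 of the 35 members, and Rtp4 had none. In the Rsad2 promoter the ISRE begins 120 bases before the start, on the opposite strand, and in Oas3 it begins 75 bases before. The GAS begins 97 bases before the start in Psmb8 and 90 bases before in Irf1. An ISRE was present in 8 of 19 type I members (42.1%) and 4 of 8 interferon-gamma type members (50%), against 3.99% of 27025 genes with a window and 3.55% of the tested genes. A GAS was present in 4 of 19 type I members (21.1%) and 3 of 8 interferon-gamma type members (37.5%), against 9.55% of all genes. In 7 other members, among them Isg15, whose signal was not measured, the ISRE, with 6 bases either side, read as follows, and those of Ifih1, Gbp2 and Igtp are not shown. In Isg15, Bst2, Irgm1 and Gbp3 overlapping matches run together in the capitals. Ifit1 and Ifit3 each had a second match, beginning at -85 and -122 from the start, which is not shown.
Isg15 (chr4:156200869-156200902, minus strand): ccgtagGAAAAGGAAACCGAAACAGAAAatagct
Bst2 (chr8:71537581-71537608, minus strand): ttccagGAAAATGAAACTGAAAggctgc
Ifit1 (chr19:34640779-34640800, plus strand): cttcagTTTCACTTTCcagtct
Ifit3 (chr19:34583367-34583388, plus strand): ggtaagTTTCACTTTCctcttc
Stat2 (chr10:128270270-128270291, plus strand): ccctggTTTCAGTTTCctttcc
Irgm1 (chr11:48871429-48871456, minus strand): tttcaaGAAATAGAAACCGAAActgatt
Gbp3 (chr3:142559993-142560020, plus strand): acacagTTTCAGTTTCTATTTCccagat

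The window of Aim2, the member with the largest difference between the WT sorts, held neither motif, which says only that these letters are not in that window.

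Signals are given as log2 of the deposited linear signal, so a difference of 1 is a 2-fold change. On all arrays the cells had the defining markers of the label: Cd8a lay between 11.3 and 12.0 and Cd3e between 10.4 and 11.0, while Cd4 lay between 4.9 and 6.0. Klrg1 lay at 10.51 to 11.52 on WT KLRG1hi arrays and at 6.02 to 6.74 on WT KLRG1lo arrays. Id2 fell by 1.13 in Id2KO cells (limma adjusted p = 0.0162), and it was 9.84 and 9.64 on Id2KOBimKO against 10.75 and 10.93 on BimKO arrays. Bcl2l11 was 7.36 and 7.66 on BimKO arrays against 7.44 to 7.92 on WT KLRG1lo arrays, so the signal did not check the BimKO label, and BimKO below means the arrays so labelled. Xist was 4.47 and 4.99 on the Id2KO arrays against 8.37 to 10.36 on the others, and Eif2s3y, a Y-linked gene, was 7.39 or more against 2.92 to 3.66. Donor sex therefore cannot be told apart from the labels in Id2KO against WT, in Id2KOBimKO against Id2KO and in the interaction, and it enters the Id2 effect averaged over Bim backgrounds. The arrays differed in spread, measured as the interquartile range of their log2 signals, which ran from 2.44 to 2.87. It was 2.83 and 2.87 on the Id2KO arrays, the group of highest mean, and 2.84 on WT KLRG1hi replicate 3. B cell markers were also uneven: their summed linear signal was 300 to 391 on WT KLRG1hi arrays, 411 to 1233 on WT KLRG1lo, 363 to 430 on Id2KO, 388 to 1347 on BimKO and 490 to 837 on Id2KOBimKO arrays. Monocyte and macrophage markers summed to 332 to 859. In a bulk sample, fewer cells that express a gene and less of its RNA per cell cannot be told apart.

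Most type I members had their lowest group mean in WT KLRG1hi cells and their highest in Id2KO or Id2KOBimKO cells. The group mean was lowest in WT KLRG1hi cells for 21 of the 25 type I members, and highest in Id2KO cells for 16 and in Id2KOBimKO cells for 6. The interferon-gamma type members were arranged otherwise: all 6 were highest in Id2KO cells, while the lowest mean was in WT KLRG1lo for 3, in WT KLRG1hi for 2 and in BimKO for 1. The order of groups was not counted over all genes, so these counts alone do not set the members apart. Of the genes above the array's 60th percentile on at least 2 arrays, 68.5% were higher in Id2KO than in WT KLRG1lo cells. Averaged over the 25 type I members, the signal was 6.89 ± 0.21 (SD, n = 3) in WT KLRG1hi, 7.22 ± 0.14 (n = 5) in WT KLRG1lo, 7.28 ± 0.01 (n = 2) in BimKO, 7.51 ± 0.04 (n = 2) in Id2KOBimKO and 7.52 ± 0.06 (n = 2) in Id2KO cells. Id2KOBimKO and Id2KO did not differ beyond their spread in that order, nor did WT KLRG1lo and BimKO. For the 6 interferon-gamma type members the averages were 8.71 ± 0.42, 8.79 ± 0.25, 8.86 ± 0.06, 8.94 ± 0.11 and 9.28 ± 0.08 in the same order of groups, and only the Id2KO arrays, at 9.23 and 9.34, lay above all the others. The single array of the others that came closest was WT KLRG1hi replicate 3, at 9.15.

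**Figure D1:**
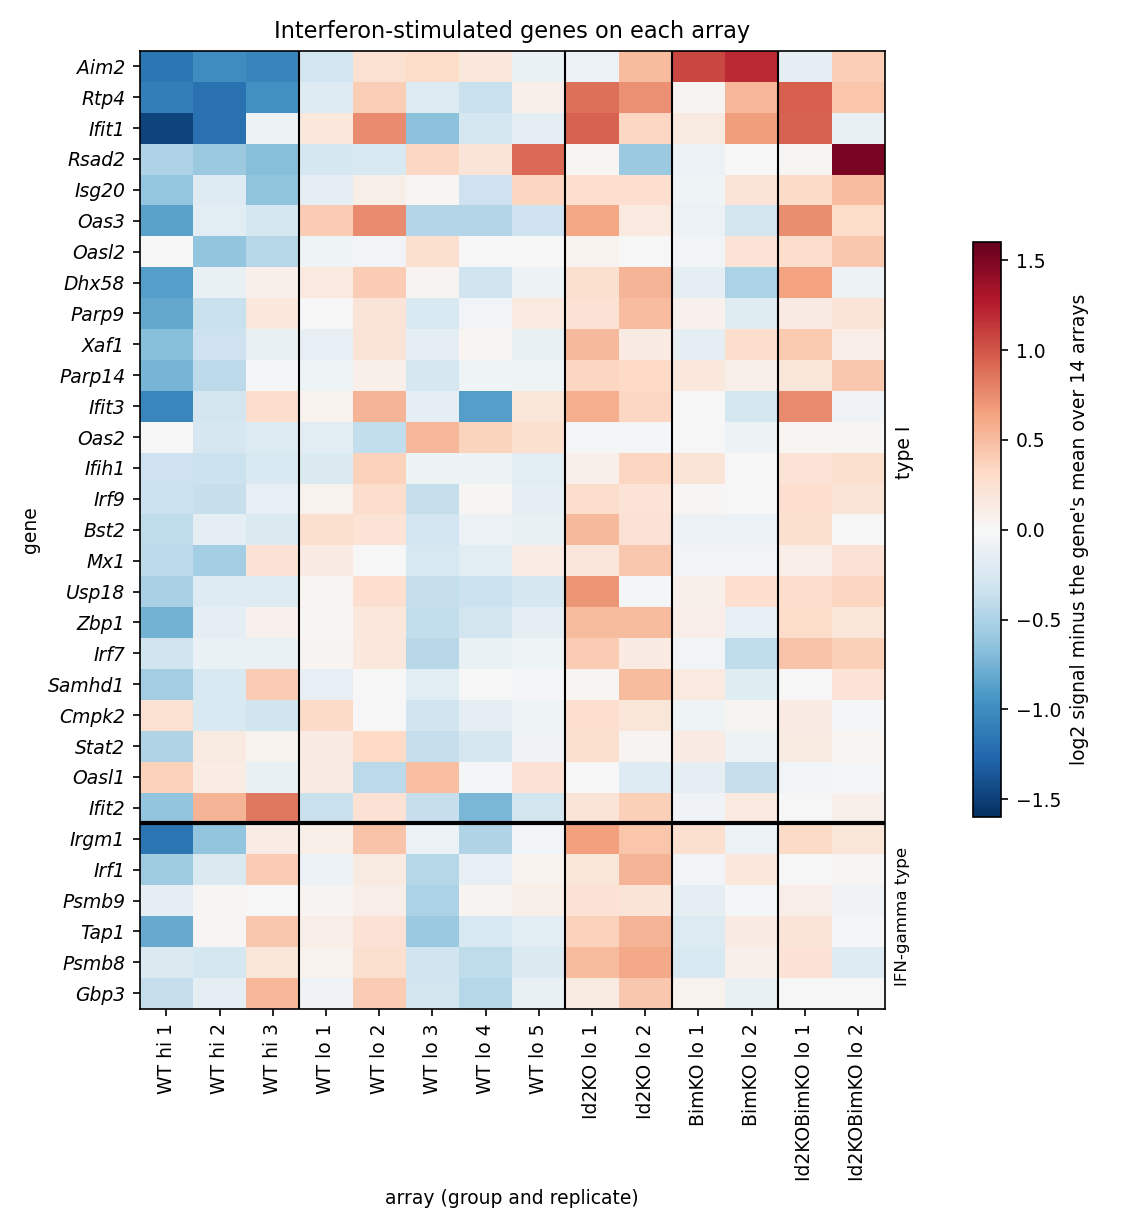
Log2 signal of the 31 measured members on each of the 14 arrays, minus the gene's mean over the 14 arrays (colour; red higher, blue lower); rows are genes, type I above the heavy line and interferon-gamma type below it, and columns are arrays by group and replicate. Aim2 and Rtp4 are low on each of the 3 WT KLRG1hi arrays, Aim2 is high on both BimKO arrays, and Rsad2 is high on Id2KOBimKO replicate 2.

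Levels on the array are not comparable between genes, because probe sets differ, but they show where each member sits in the signal range. Samhd1, a phosphohydrolase that depletes the nucleotide pool viruses need, had the highest mean of the type I members, 10.88 over the 14 arrays. Its values were 10.32, 10.64 and 11.28 on the WT KLRG1hi arrays and 10.75, 10.88, 10.71, 10.87 and 10.85 on the WT KLRG1lo arrays. In the Id2KO cells it was 10.91 and 11.39, in BimKO 11.04 and 10.68, and in Id2KOBimKO 10.89 and 11.10. The WT KLRG1hi arrays spanned nearly the whole range of the other groups, so the sorts overlapped. Oas2, which makes the second messenger that activates RNase L, had the lowest mean, 5.89. Its WT KLRG1hi values were 5.89, 5.62 and 5.67 and its WT KLRG1lo values 5.71, 5.49, 6.42, 6.24 and 6.14, while the 6 arrays of the mutants lay between 5.80 and 5.91. The groups overlapped, and the WT KLRG1lo arrays split into a low pair and a high set of 3. The median of the members' within-group SD was 0.26, against 0.23 over all genes tested, and it ran from 0.18 to 0.59.

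The first comparison asked how the KLRG1hi sort differs from the KLRG1lo sort within WT cells. Type I members were lower in KLRG1hi cells: 2 fell past the threshold, Aim2 by 1.12 and Rtp4 by 1.03, and 23 of the 25 had a difference below 0, with a median of -0.273. Interferon-gamma type members did not share this in the fit to all arrays, with 2 of 6 below 0 and a median of 0.006. That contrast depended on the setting. With quantile normalization 1 of 6 was above 0 (median -0.035), and with spread as a covariate 1 of 6 was (median -0.079). Both classes also differed between sets of arrays with lower and higher background, as given below. Over all genes tested the median was 0.002, 49.5% were below 0, and limma called 0.263% lower and 0.679% higher at an adjusted p under 0.05. The arrays of the sorts did not overlap for 4 members, all type I and lower in KLRG1hi cells (Aim2, Rtp4, Rsad2 and Ifih1), against 1.77% of all genes. At an unadjusted p under 0.05 there were 6 type I members lower and 1 higher, Ifit2 (2.86% and 4.34% of all genes).

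Aim2 encodes a cytosolic sensor of double-stranded DNA that assembles an inflammasome. It measured 4.92, 5.09 and 5.02 on the WT KLRG1hi arrays, and 5.78, 6.32, 6.37, 6.25 and 5.97 on the WT KLRG1lo arrays. The 3 KLRG1hi values lay close together and below all 11 KLRG1lo arrays of any genotype. The difference was -1.12 (SE 0.18, limma adjusted p = 0.00358), a level 2.18-fold lower. The KLRG1hi values lay below the 40th percentile of their arrays (5.32, 5.22 and 5.16), the cut of the filter on low signals. Their closeness and the size of the fold are therefore limited by the floor of the signal. With an offset of 16 the difference was -0.84 (limma adjusted p = 0.0118).

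Rtp4, which encodes a receptor transporter protein strongly induced by type I interferon, measured 6.29, 6.21 and 6.43 on the WT KLRG1hi arrays. On the WT KLRG1lo arrays it was 7.19, 7.80, 7.18, 7.04 and 7.48, so that here too no KLRG1hi array reached the lowest KLRG1lo array. On the mutant arrays it was 8.28 and 8.13 (Id2KO), 7.44 and 7.93 (BimKO), and 8.36 and 7.85 (Id2KOBimKO), so it was higher there than in KLRG1hi cells too. The difference was -1.03 (SE 0.18, limma adjusted p = 0.00974), or 2.04-fold lower. Without WT KLRG1hi replicate 2 the call of Rtp4 was lost (-0.98, limma adjusted p = 0.0857), whereas Aim2 passed with every array left out in turn.

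Rsad2, which encodes viperin, an enzyme that makes a chain-terminating nucleotide, was 5.44, 5.35 and 5.26 on the WT KLRG1hi arrays and 5.66, 5.70, 6.27, 6.14 and 6.84 on the WT KLRG1lo arrays. The groups did not overlap, but the KLRG1lo arrays were spread over more than 1 log2 unit, and the difference of -0.77 (SE 0.29) did not pass (limma adjusted p = 0.431). Ifih1, the RNA sensor MDA5, was 6.74 to 6.84 in KLRG1hi and 6.85 to 7.46 in KLRG1lo cells, a narrow gap. Ifit1, which binds foreign RNA caps, was 4.70, 4.99 and 6.10 against 5.52 to 6.94, and its difference of -0.89 (SE 0.33) had a limma adjusted p of 0.425.

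The exceptions to the common direction were Ifit2 and Oasl1 of type I. Ifit2, a relative of Ifit1 that binds RNA and restrains viruses, was 6.38, 7.55 and 7.85 on the WT KLRG1hi arrays and 6.65, 7.24, 6.64, 6.28 and 6.71 on the WT KLRG1lo arrays. It was high on KLRG1hi replicates 2 and 3 and not on replicate 1, and the difference of 0.56 (SE 0.26) did not pass (limma adjusted p = 0.675). Without KLRG1hi replicate 1, the array of narrowest spread, Ifit2 passed as higher in KLRG1hi cells (1.0, limma adjusted p = 0.0189). Oasl1, a translational repressor of Irf7, had means of 7.55 ± 0.24 (SD, n = 3) and 7.51 ± 0.34 (n = 5).

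The transcription factors of the type I response were among the members with small differences. Irf7 had a mean of 8.03 ± 0.12 (SD, n = 3) in KLRG1hi and 8.12 ± 0.23 (n = 5) in KLRG1lo cells, and Stat2 had 7.88 ± 0.34 and 7.92 ± 0.28. For Irf9, the DNA-binding partner of STAT2, the means were 7.80 ± 0.13 and 8.05 ± 0.25. Among interferon-gamma type members the difference was -0.034 for Irf1, 0.022 for Psmb8 and 0.011 for Tap1, each smaller than its SE. Irgm1, a guanosine triphosphatase of cell-autonomous defence, was the member of that class farthest from 0, at -0.54 (SE 0.24, limma adjusted p = 0.61).

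**Figure D2:**
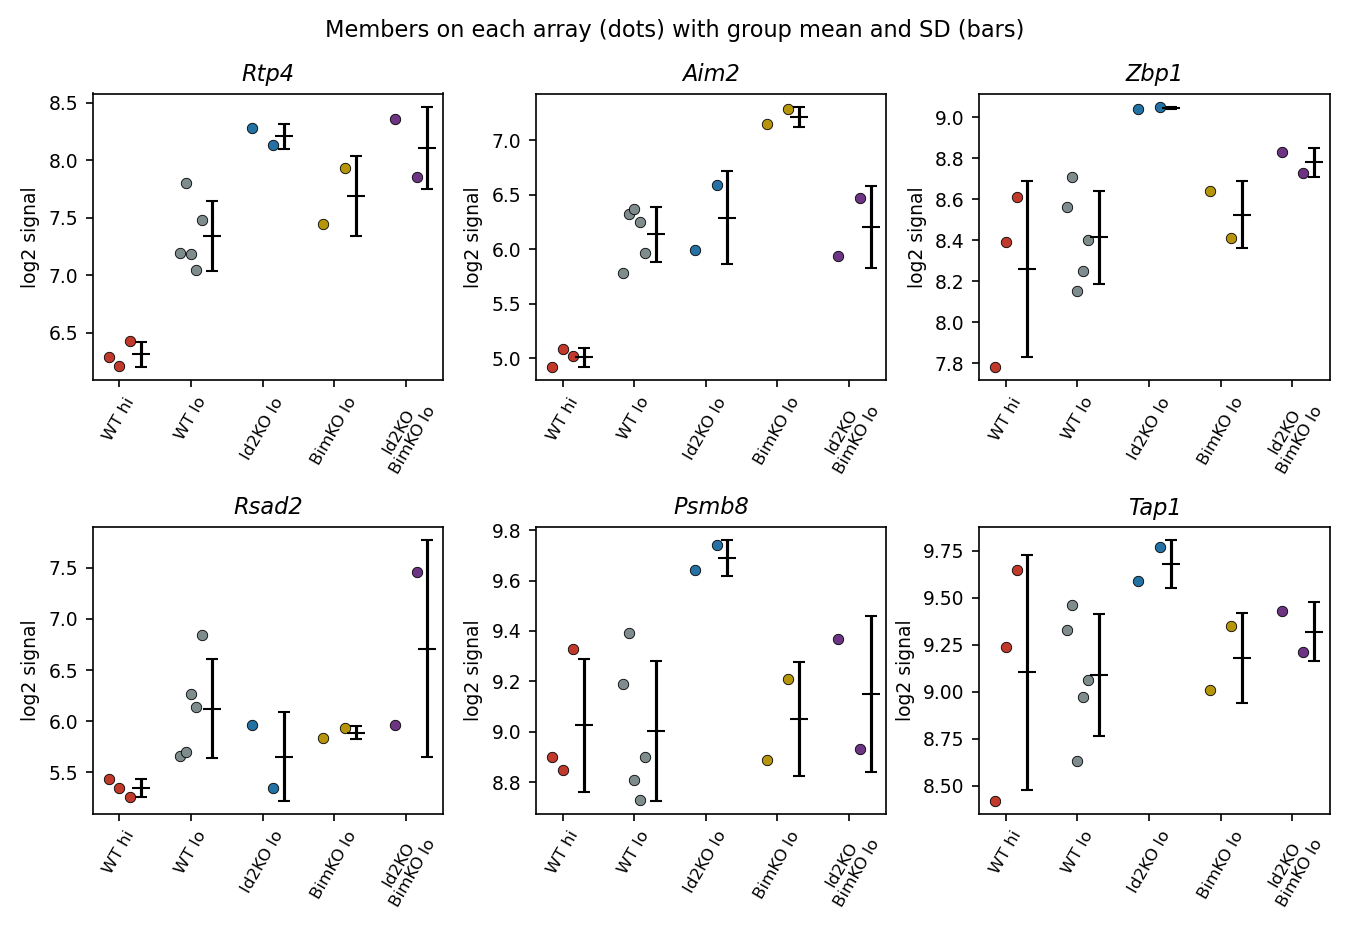
Log2 signal (vertical axis) of Rtp4, Aim2, Zbp1, Rsad2, Psmb8 and Tap1 in the 5 groups; each point is an array, and the bars are the mean ± SD. Rtp4 and Aim2 lie lower on the 3 WT KLRG1hi arrays than on any other array, and Psmb8 is highest on the 2 Id2KO arrays.

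Array spread and B cell markers did not run with the sorts in the same way on every array, so values can be set side by side where either matches. Against the WT KLRG1lo array of nearest spread, the mean of the 25 type I members was lower by 0.41 on KLRG1hi replicate 1, by 0.32 on replicate 2 and by 0.34 on replicate 3. In those pairs 22, 23 and 20 of the 25 members were lower, while the mean of the CD8 T cell markers differed by 0, 0.01 and 0.12. For the interferon-gamma type mean the same differences were -0.17, -0.23 and 0.01. These pairs were chosen by spread alone. The B cell sum was 391, 372 and 300 on the KLRG1hi arrays against 1146, 420 and 411 on their KLRG1lo partners. Only the pair of KLRG1hi replicate 2 lay within the same background set, as defined below. With spread as a covariate the type I median was -0.296, and 4 members fell: Rtp4 (-1.08), Aim2 (-1.12), Ifit1 (-1.06) and Irgm1 (-0.65), with limma adjusted p of 0.000522, 0.00118, 0.00282 and 0.0208. Of all genes, 1.06% fell with the covariate. Cd74, a B cell and antigen-presenting cell gene, was 5.53 and 5.54 on WT KLRG1hi replicates 1 and 2 and 5.73 on both of WT KLRG1lo replicates 1 and 2, but 7.98 to 8.73 on WT KLRG1lo replicates 3 to 5. It was also low, at 4.88, on WT KLRG1hi replicate 3. On the 2 WT KLRG1lo arrays low in Cd74, Rtp4 was 7.19 and 7.80 and Aim2 5.78 and 6.32, above all 3 WT KLRG1hi arrays. A lower background set was parted from the other arrays by the median of probe sets without a gene name. In it the sorts had replicates 1 and 2 each, but they were not matched in spread. The spread in that set was 2.44 and 2.67 on the KLRG1hi arrays and 2.68 and 2.82 on the KLRG1lo arrays. The differences there were -1.24 for Rtp4 and -1.04 for Aim2 (limma adjusted p = 0.000163 and 0.0036), and 4 further members fell (Ifit1, Ifit3, Irgm1 and Oas3), where 1.45% of all genes fell. Rsad2 was -0.29 there (limma adjusted p = 0.6), and its high values fell on the arrays with high Cd74. The part of B cell RNA in its difference was not tested. The median over all members was -0.507 in the lower background set, against -0.25 over all arrays. By class it was -0.514 for type I and -0.431 for interferon-gamma type members, with 0 of the 6 latter above 0. In the higher background set, where the KLRG1hi sort had only replicate 3, the median over all members was 0.129. There it was 0.1 for type I, with 14 of 25 above 0, and 0.548 for interferon-gamma type members, with 6 of 6 above 0. So the type I class as a whole was not lower in that set. The spread in the higher set was 2.84 on the KLRG1hi array and 2.46 to 2.57 on the KLRG1lo arrays. There Aim2 (-1.17), Rtp4 (-0.81) and Rsad2 (-1.15) fell, whereas Ifit2 (1.31) and Gbp3 (0.83) rose, the lone array being assumed to vary like the others. Of all genes, 1.44% fell and 8.17% rose in that setting.

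**Figure D3:**
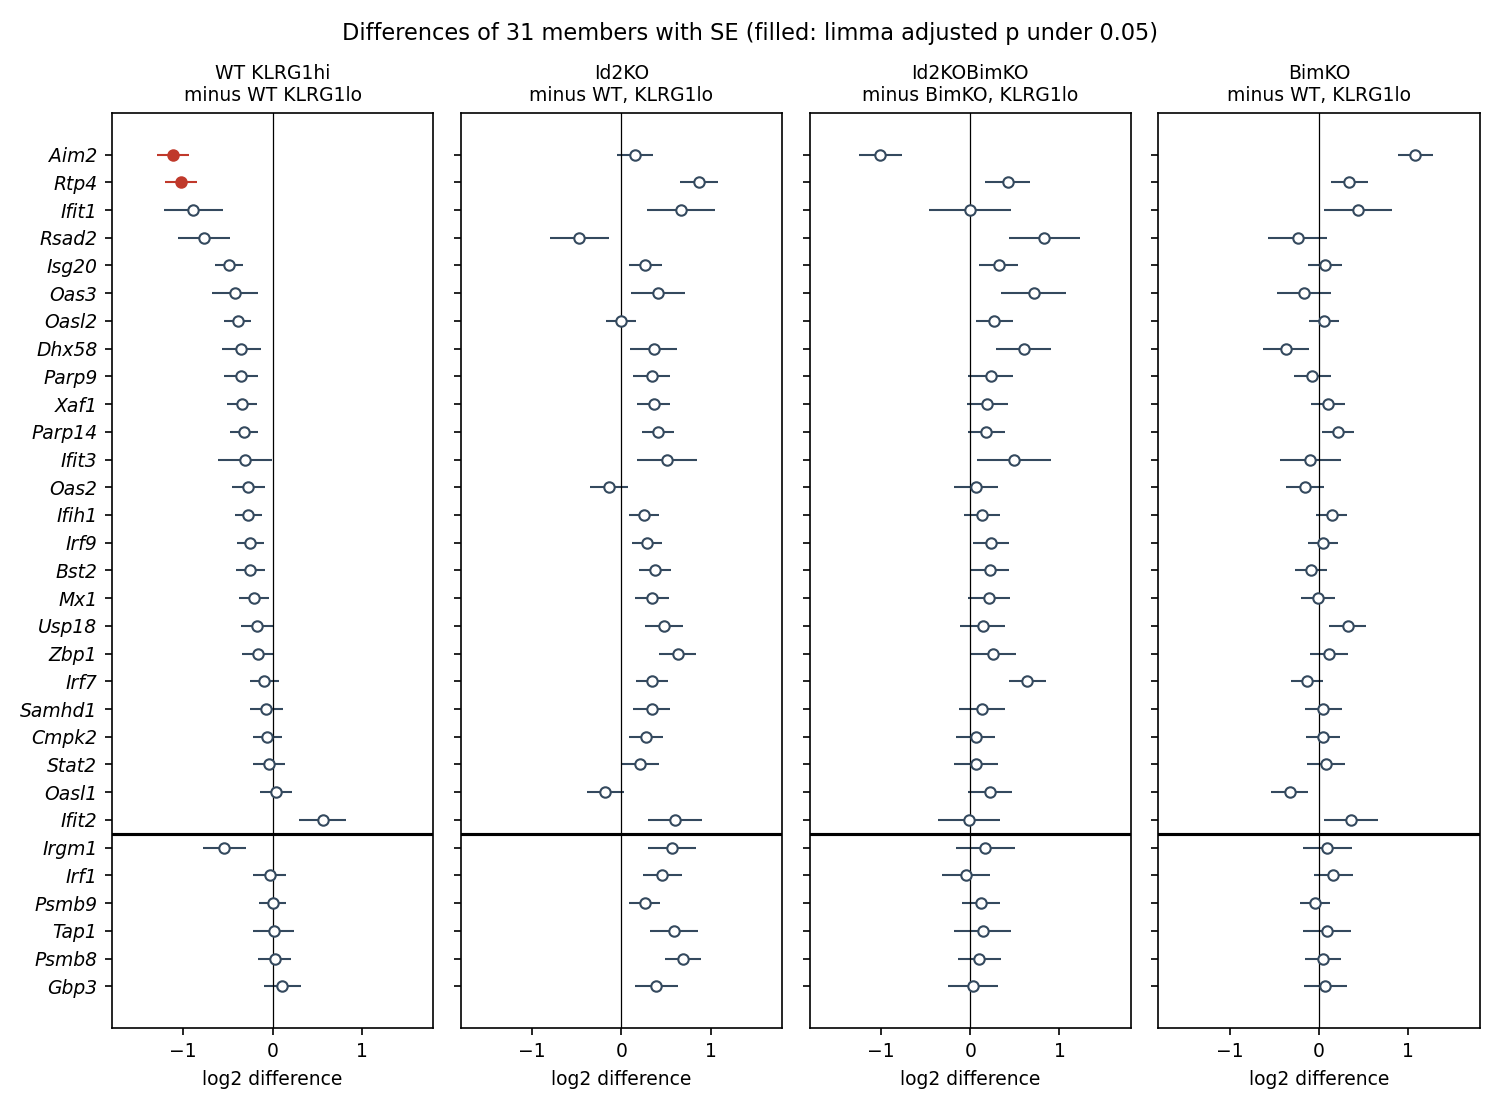
Difference in log2 signal (horizontal axis) with its SE from limma for each of the 31 members (rows) in 4 comparisons (panels); filled points passed at an adjusted p under 0.05. Only Aim2 and Rtp4, in WT KLRG1hi against WT KLRG1lo, are filled, and most points lie below 0 in that panel and above 0 in the Id2KO panel.

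The second comparison asked how Id2KO cells differed from WT cells within the KLRG1lo sort. The signal of most members of both classes was higher in Id2KO than in WT cells, although no member passed. Of 25 type I members 21 were above 0, with a median of 0.344, and all 6 interferon-gamma type members were above 0, with a median of 0.517. Over all genes the median was 0.03, 52.2% were above 0 and limma called 0.111%. Genes of higher signal were shifted too: of the 10196 genes above the 60th percentile on at least 2 arrays, which include 30 of the members, 68.5% were above 0, with a median of 0.197. All 5 CD8 T cell markers were above 0, with a median of 0.319. At an unadjusted p under 0.05 there were 5 type I and 2 interferon-gamma type members higher, where 10.7% of all genes were. The Id2KO arrays lay above all 5 WT KLRG1lo arrays for 6 type I and 4 interferon-gamma type members, against 14.2% of all genes.

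Rtp4 came closest to the threshold. Both Id2KO arrays lay above the highest WT KLRG1lo array, 7.80, and the difference was 0.87 (SE 0.21, limma adjusted p = 0.233). Without WT KLRG1lo replicate 2 it passed, at 0.99 with a limma adjusted p of 0.0386. That array had the widest spread of its group, 2.82, and was the nearest in spread to the Id2KO arrays, at 2.83 and 2.87. Zbp1, a sensor of Z-form nucleic acid that starts necroptosis, was 9.04 and 9.05 against 8.56, 8.71, 8.15, 8.25 and 8.40. The Id2KO pair differed by little and stood above all WT arrays, with a difference of 0.63 (SE 0.21, limma adjusted p = 0.275). Parp14, an ADP-ribosyltransferase, was 9.38 and 9.35 on the Id2KO arrays against 8.97, 9.12, 8.77, 8.97 and 8.96, a difference of 0.41 (SE 0.18, limma adjusted p = 0.275). On the WT KLRG1hi arrays Zbp1 was 7.78, 8.39 and 8.61 and Parp14 8.29, 8.61 and 9.02, both lowest on replicate 1, the array of narrowest spread.

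In the interferon-gamma class, Psmb8, a catalytic subunit of the immunoproteasome, was 9.64 and 9.74 on the Id2KO arrays and 9.19, 9.39, 8.81, 8.73 and 8.90 on the WT KLRG1lo arrays. No array of any other group reached the Id2KO pair, and the difference was 0.69 (SE 0.20, limma adjusted p = 0.275). Tap1, which carries peptides into the endoplasmic reticulum for MHC class I, was 9.59 and 9.77 against 9.33, 9.46, 8.63, 8.97 and 9.06, a difference of 0.59 (SE 0.27, limma adjusted p = 0.275). Irf1, the transcription factor that relays much of the gamma response and had the highest mean of its class, was 9.62 and 9.97 against 9.33, 9.57, 8.97, 9.30 and 9.48. That difference was 0.46 (SE 0.22, limma adjusted p = 0.275), and a WT KLRG1hi array, at 9.83, lay between the Id2KO values. Gbp3, a guanylate-binding protein and the member of lowest mean in the class, was 8.15 and 8.44 against 7.95, 8.41, 7.71, 7.55 and 7.89, which overlapped.

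The WT KLRG1hi arrays spread widely in this class. On replicates 1 to 3, Psmb8 was 8.90, 8.85 and 9.33, Tap1 8.42, 9.24 and 9.65, Irf1 8.86, 9.20 and 9.83, and Gbp3 7.62, 7.86 and 8.54. All 4 genes were highest on replicate 3, the KLRG1hi array of widest spread. The BimKO arrays had Tap1 at 9.01 and 9.35, Irf1 at 9.38 and 9.60 and Gbp3 at 8.06 and 7.89, within the WT KLRG1lo range but for the higher Irf1 value. Gbp3 was 8.01 on Id2KOBimKO replicate 1 and nearly the same on replicate 2.

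Type I members did not all lie on the same side. Rsad2 was 5.96 and 5.35 on the Id2KO arrays, inside or below the WT range of 5.66 to 6.84, a difference of -0.47. Rsad2 and Cmpk2, a mitochondrial nucleotide kinase, lie beside each other on chromosome 12 close to Id2, with 1 and 2 protein-coding genes between them and the targeted gene in the RefSeq order. Cmpk2 was 6.33 and 6.26 on the Id2KO arrays and 5.75 to 6.37 on the WT KLRG1lo arrays. Aim2 was 5.99 and 6.59, within the WT range but for its upper value, a difference of 0.15 (SE 0.20). Oasl1 and Oas2 were the other members below 0 apart from Oasl2, which was at -0.005.

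As a group the Id2KO arrays had the highest mean spread, and the members' differences from WT were smaller when spread was taken into account. With spread as a covariate the medians were 0.112 for type I and 0.013 for interferon-gamma type members, and with quantile normalization they were 0.17 and 0.26. Tap1 turned to -0.03 with the covariate. Over the alternatives, single arrays left out apart, the difference ran from 0.57 to 0.90 for Rtp4 and from 0.21 to 0.78 for Zbp1. It ran from 0.29 to 0.92 for Psmb8 and from 0.04 to 0.72 for Irf1. Against WT KLRG1lo replicate 2, the array nearest in spread, the type I mean was higher by 0.14 and 0.05 on the Id2KO arrays and the interferon-gamma type mean by 0.08 and 0.20, with the CD8 T cell markers higher by 0.10 and 0.19. In the arrays of higher background, where Id2KO had 1 array, 8 members were called, 7 of them higher (Gbp3, Ifit2, Irf1, Psmb8, Rtp4, Tap1 and Zbp1) and Rsad2 lower. In that setting 11.6% of all genes were called higher and 5.05% lower.

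**Figure D4:**
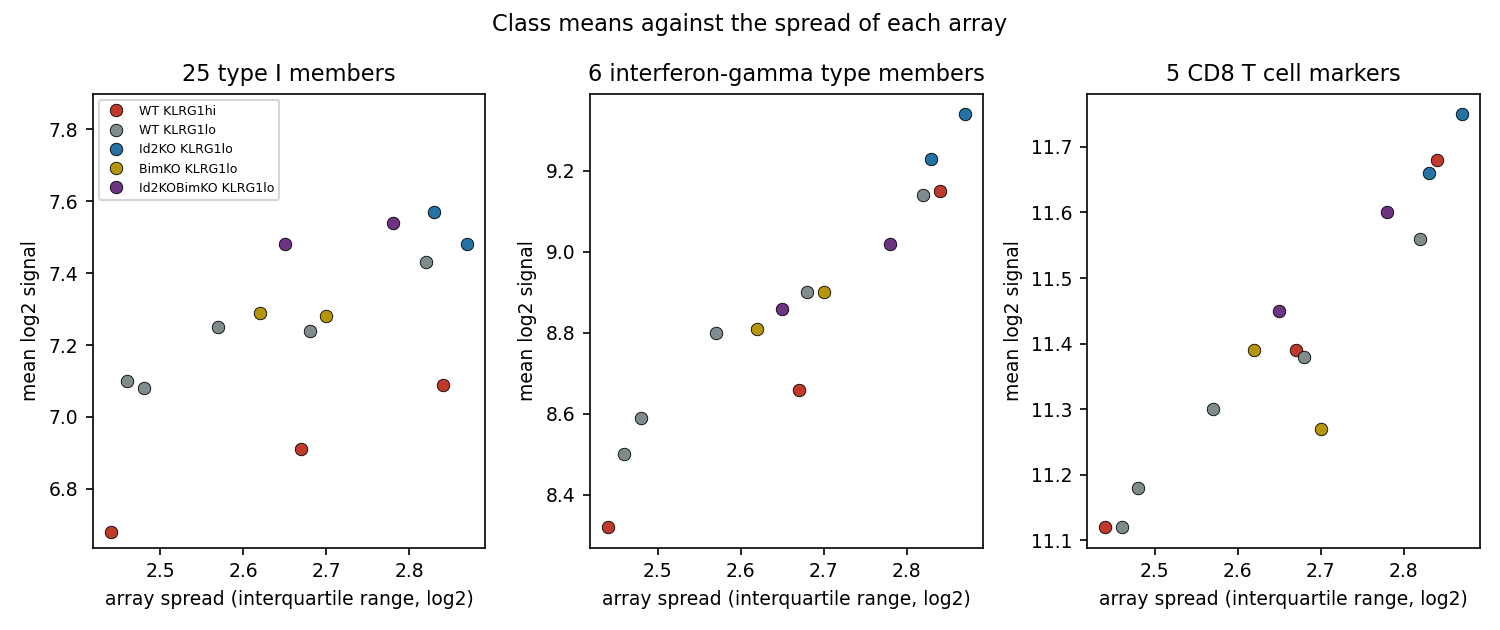
Mean log2 signal of the 25 type I members, of the 6 interferon-gamma type members and of the CD8 T cell markers (vertical axes, 3 panels) against the spread of each array, its interquartile range in log2 units (horizontal axis); each point is an array, marked by group. The 3 WT KLRG1hi arrays lie below the other arrays of like spread in the type I panel, whereas the Id2KO arrays are the highest of all in the interferon-gamma panel.

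The same question was put on the BimKO background, by comparing Id2KOBimKO with BimKO. Type I members again had mostly higher values in the Id2KOBimKO cells, with 23 of 25 above 0 and a median of 0.216, and interferon-gamma type members had 5 of 6 above 0 and a median of 0.112. Over all genes the median was 0.031 and 56.7% were above 0. Of the 5 CD8 T cell markers 4 were above 0, with a median of 0.22, much like that of the type I members. No gene of any kind was called (0%), and at an unadjusted p under 0.05 limma gave 1 member higher (Irf7) and 1 lower (Aim2), against 0.914% and 0.9% of all genes. The Id2KOBimKO arrays lay above both BimKO arrays for 16 type I members and no interferon-gamma type member, where 17.6% of all genes did, and below them for Aim2, against 12% of all genes.

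Irf7, the factor that amplifies type I interferon production, was 8.66 and 8.59 on the Id2KOBimKO arrays and 8.16 and 7.80 on the BimKO arrays, a difference of 0.64 (SE 0.21, limma adjusted p = 1). Oas3, another synthase of the RNase L messenger, was 8.56 and 8.11 against 7.72 and 7.52, a difference of 0.71 (SE 0.36, limma adjusted p = 1). In WT KLRG1lo cells Oas3 was 8.22, 8.57, 7.35, 7.35 and 7.48 and in Id2KO cells 8.43 and 7.97, so that WT KLRG1lo arrays covered the whole range seen in the mutants. The WT KLRG1hi arrays had Oas3 at 6.96, 7.64 and 7.53. Rsad2 was 5.96 and 7.46 against 5.84 and 5.93, and only Id2KOBimKO replicate 2 was high. Its difference was 0.83 (SE 0.40, limma adjusted p = 1) with both arrays and 0.08 without that replicate. That replicate had Cd74 at 7.77 and Lyz2, a gene of macrophages and other myeloid cells, at 6.72, against 6.25 and 5.18 on replicate 1. BimKO replicate 2, with Cd74 at 8.63 and Lyz2 at 7.35, had Rsad2 at 5.93.

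Averaged over both Bim backgrounds, the Id2KO difference was above 0 for 23 of 25 type I members (median 0.288) and for all 6 interferon-gamma type members (median 0.289), with a median of 0.016 and 52.6% above 0 over all genes. No member passed where limma called 0.18% of genes, and at an unadjusted p under 0.05 there were 7 members higher and 1 lower (4.88% and 2.23% of all genes). The smallest unadjusted p-values belonged to Rtp4, at 0.64 (SE 0.16, limma adjusted p = 0.226), and Irf7, at 0.49 (SE 0.14, limma adjusted p = 0.385). The members below 0 were Aim2 at -0.43 (SE 0.16) and Oas2 at -0.038. Of the 10196 genes above the 60th percentile on at least 2 arrays, 66.7% were above 0, with a median of 0.099. All 5 CD8 T cell markers were above 0, with a median of 0.288, so the shift was not particular to the members. This average shares its arrays with the comparisons above and is no further evidence for them. With spread as a covariate its median over all members was 0.124.

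The remaining comparisons concern Bim. BimKO against WT KLRG1lo gave small median differences, with 15 of 25 type I members above 0 (median 0.049) and 5 of 6 interferon-gamma type members (median 0.081), against a median of -0.018 and 47.3% above 0 over all genes. Nothing was called (0% of genes), and 6.91% of all genes but 1 member had an unadjusted p under 0.05. That member was Aim2, at 7.15 and 7.28 on the BimKO arrays, above every other array of the study. The difference was 1.08 (SE 0.20), a level 2.11-fold higher, with an unadjusted p of 6.3e-05 and a limma adjusted p of 0.452. Both BimKO arrays were high in Aim2, and Cd74 was 5.21 on replicate 1 and 8.63 on replicate 2. The part of B cell RNA in the Aim2 difference was not tested. Aim2 was 5.94 and 6.47 in Id2KOBimKO cells, which put its difference from BimKO at -1.01 (SE 0.24, limma adjusted p = 1) and its interaction of Id2 and Bim at -1.16 (SE 0.32, limma adjusted p = 0.726). Parp14 was 9.20 and 9.13 in BimKO cells, above the highest WT KLRG1lo array at 9.12, but its difference of 0.21 was close to its SE of 0.18. The 2 members that did not overlap, Aim2 and Parp14, compare with 5.6% of all genes.

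Id2KOBimKO against Id2KO gave lower values in the interferon-gamma class. All 6 members were below 0 with a median of -0.327, and the arrays did not overlap for any of the 6, while type I members had 17 of 25 below 0 and a median of -0.068. Over all genes the median was -0.028, 55.3% were below 0, 21% had arrays apart in the lower direction, and 0.0277% were called. Above the 60th percentile, 34.4% of genes were above 0, with a median of -0.077. No member passed, and at an unadjusted p under 0.05 there were Rsad2, higher, and Psmb8, lower, against 0.803% of all genes. The Rsad2 difference was 1.06 (SE 0.40, limma adjusted p = 1), and without Id2KOBimKO replicate 2 it was 0.31. Psmb8 was 9.37 and 8.93 in Id2KOBimKO cells, near the BimKO values of 8.89 and 9.21, and the difference from Id2KO was -0.54 (SE 0.24, limma adjusted p = 1). Tap1 was 9.43 and 9.21 (-0.36, SE 0.32) and Irf1 9.44 and 9.45 (-0.35, SE 0.27), each with a limma adjusted p of 1. Zbp1 was 8.83 and 8.73 (-0.26, SE 0.25), above the BimKO values of 8.64 and 8.41. Parp14, at 9.23 and 9.46, was level with Id2KO cells (-0.022, SE 0.21). Oasl2, a ubiquitin-like relative of the synthases, was 6.40 and 6.55 against 6.18 and 6.11 in Id2KO cells, a difference of 0.33 (SE 0.21, limma adjusted p = 1). In WT cells Oasl2 was 6.11, 5.49 and 5.66 in the KLRG1hi sort and 6.05, 6.08, 6.37, 6.13 and 6.11 in the KLRG1lo sort, and in BimKO cells 6.08 and 6.34. With spread as a covariate the interferon-gamma type median was -0.048 and the type I median 0.107.

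The interaction of Id2 and Bim, the difference between the Id2 effects on the BimKO background and on the WT background, called no member and 0.0277% of genes. At an unadjusted p under 0.05 it gave Rsad2 (1.29, SE 0.52, or 0.55 without Id2KOBimKO replicate 2) above 0 and Aim2 below 0, against 4.27% of all genes. The median was -0.132 over type I and -0.427 over interferon-gamma type members, against -0.021 over all genes, and over all members it was -0.161, or 0.048 with spread as a covariate and 0.014 with quantile normalization.

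The remaining type I members are given by role. Among antiviral effectors, Isg20, an exonuclease, had group means from 6.38 ± 0.25 in WT KLRG1hi to 7.26 ± 0.14 in Id2KOBimKO cells, and its difference between the WT sorts of -0.49 had a limma adjusted p of 0.302. Ifit3, a partner of Ifit1, ran from 5.89 ± 0.67 to 6.71 ± 0.17 in Id2KO cells. Mx1, a dynamin-like guanosine triphosphatase, ran from 5.78 ± 0.41 to 6.33 ± 0.17, and Bst2, the tetherin that holds budding virus at the cell surface, from 7.25 ± 0.14 to 7.88 ± 0.21, both lowest in WT KLRG1hi and highest in Id2KO cells. Among sensors and regulators, Dhx58, a modulator of RNA sensors, was lowest in BimKO (6.30 ± 0.25) and highest in Id2KO cells (7.02 ± 0.21). Usp18, which removes ISG15 and damps the type I receptor, ran from 6.96 ± 0.18 in WT KLRG1hi to 7.61 ± 0.52 in Id2KO cells, with Xaf1, a pro-apoptotic factor, at 6.55 ± 0.28 and 7.25 ± 0.27. Parp9, the partner of the ligase DTX3L, had 7.58 ± 0.49 and 8.28 ± 0.18 in the same groups. Psmb9, the other immunoproteasome subunit of the gamma class, stayed within 8.91 ± 0.10 in BimKO and 9.22 ± 0.02 in Id2KO cells. The pattern across groups was thus shared by most antiviral effectors and sensors, with group means of these members less than 1 log2 unit apart. Its Id2KO part was not particular to them, as the CD8 T cell markers had a median of 0.319 in Id2KO against WT. With spread as a covariate the type I median there was 0.112, against 0.344 without it.

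Other genes of the interferon pathway, in lists that do not overlap the members, were read in the same way. Of 16 receptor and signalling genes 15 were measured and tested, and their median difference between WT KLRG1hi and KLRG1lo was -0.001 with none called. Among interferon genes, of which 4 of 9 were tested, Ifng itself rose in KLRG1hi cells. It was 6.68, 7.08 and 7.14 on the WT KLRG1hi arrays and 6.11, 6.43, 5.82, 6.06 and 6.11 on the WT KLRG1lo arrays, a difference of 0.86 (SE 0.16, limma adjusted p = 0.012) without overlap. So the sort with lower type I members had more Ifng transcript. Its interferon-gamma type members had a median difference of 0.006 over all arrays, but -0.431 within the lower and 0.548 within the higher background set.

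Over all genes tested, 49.5% were lower in KLRG1hi cells, and limma called 0.263% lower and 0.679% higher. Of 46 further type I genes 39 were tested, of which 31 were lower in KLRG1hi cells (median -0.171), 1 fell and none rose. The gene that fell was Ifi27l2a, a small mitochondrial protein, at 6.00, 6.86 and 6.60 on the WT KLRG1hi arrays and 7.70, 8.42, 7.42, 7.27 and 7.84 on the WT KLRG1lo arrays. Its difference was -1.24 (SE 0.26, limma adjusted p = 0.0269), and it was 8.72 and 7.94 in Id2KO and 8.80 and 8.22 in Id2KOBimKO cells. Of 30 further interferon-gamma type genes 19 were tested, with 9 lower and 10 higher, and Gbp9, another guanylate-binding protein, fell. It was 6.97, 6.50 and 7.69 against 7.84, 8.07, 8.43, 8.21 and 8.24, a difference of -1.10 (SE 0.22, limma adjusted p = 0.0205). Without WT KLRG1hi replicate 2 Ifng, Ifi27l2a and Gbp9 all missed the threshold, the limma adjusted p being 0.119 for Ifng, 0.0569 for Ifi27l2a and 0.191 for Gbp9. Ifi27l2a was also lost without WT KLRG1hi replicate 1 and without WT KLRG1lo replicate 1 or 5, and Gbp9 without WT KLRG1lo replicate 3, 4 or 5. Ifng was at 0.61 within the lower background set (limma adjusted p = 0.211) and Gbp9 at -0.60 within the higher (0.0793), and Gbp9 missed the threshold with the groups compared alone (0.0539).

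In Id2KO against WT cells no gene of these lists passed. There were 37 of 39 type I genes above 0 (median 0.377) and 13 of 19 interferon-gamma type genes (median 0.247). Receptor and signalling genes had 12 of 15 above 0 (median 0.281), while the 4 interferon genes were all below 0 (median -0.219). Of all genes 52.2% were above 0. Of genes above the 60th percentile on at least 2 arrays 68.5% were (median 0.197), near the share of the interferon-gamma type genes. Slfn5, a schlafen family gene, was at 0.94 and Ly6e, a surface protein, at 0.64. Psmb10 and Tap2, partners of Psmb8 and Tap1 in peptide processing, were at 0.64 and 0.52, and Ifnar2, a chain of the type I receptor, was at 0.57, each with a limma adjusted p of 0.275. In Id2KOBimKO against BimKO cells, where 56.7% of all genes were above 0, the type I genes had 31 of 39 above 0 (median 0.175). The interferon-gamma type genes had 9 of 19 (median -0.058). For BimKO against WT KLRG1lo the corresponding medians were 0.119 and 0.169, and for Id2KOBimKO against Id2KO they were -0.066 and -0.155. Genes of these lists with the smallest unadjusted p were, between the WT sorts, Ddx60, an antiviral helicase (-0.73), and Gbp8 (-0.57), with Jak1 at 0.56 and Ifngr1 at 0.39. Cxcl10, the interferon-induced ligand of CXCR3, was at -0.84 and Nos2, the inducible nitric oxide synthase, at -0.73 in Id2KOBimKO against BimKO cells, while Oas1a was at 0.60. In BimKO against WT cells Cxcl10 was at 0.53, Trim21 at 0.48 and Oas1b at 0.41. In Id2KOBimKO against Id2KO cells Gbp5 was at -0.62 and B2m, the light chain of MHC class I, at -0.32. None of these passed.

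Outside the lists, the genes whose signal over the 14 arrays was most like the type I mean were Dgka, a lipid kinase of T cell signalling (Pearson r = 0.975), Cxcr3, a chemokine receptor (r = 0.973), Cd28, a costimulatory receptor (r = 0.973), Sidt1 (r = 0.973) and Cd27, another costimulatory receptor (r = 0.97). These correlations describe arrays that share their group structure and differences in spread.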

How the data were processed

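Expression was profiled on 14 arrays of a single colour, 1 per sorted sample, in 5 groups taken from the labels. The deposited values are intensity signals on a linear scale that the authors made with RMA, per the labels, for 34760 probe sets. The submitters' processing notes name the assembly mm9. Scanner files were not used here, so scale and centring against them stay unknown, and the number of arrays limits the precision. Values were turned into log2. Probe sets with 1 gene name (21640) were kept, 1321 with several and 11799 with none were left out, and 21553 names were updated by Entrez number through RefSeq (GRCm38.p6), whose promoters carry that build's coordinates. The probe set of highest mean stood for each gene. Genes above the array's 40th percentile on at least 2 arrays were tested (14438).

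Group means were fitted to all arrays with limma 3.58.1 in R 4.3.3, two-sided, with Benjamini-Hochberg adjustment over the genes tested and a threshold of 0.05. The fit was checked on simulated data. The members and lists were chosen with earlier results of these data known. Values on every array are given for members that passed, for the 3 of each class with the largest difference among those whose arrays did not overlap in a pairwise comparison, and for those of highest and lowest mean. Pathway genes were named where they passed or, up to 2 a list, had the smallest unadjusted p in a pairwise comparison. Other genes named from their values, such as Ifit2, Ifit1 and Irf7, were chosen after the values were seen. Alternatives were no filter and a stricter filter, quantile normalization, a robust fit, the groups compared alone, a mean over probe sets, an offset of 16, a replicate block, array spread, background sets, members shared by both classes left out, and each array left out.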

Additional observations from a re-analysis of the deposited data

Results flagged for a closer look

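In the WT KLRG1lo group of 5 arrays, 3 of the 31 measured members had an array that stood apart from the other 4 by more of the group's range than Dixon's 95% critical value of 0.71, where chance marks about 1 in 20 such groups. Oasl2 was 6.37 on replicate 3, with the others at 6.05 to 6.13 (gap over range 0.76). Ifih1 was 7.46 on replicate 2, with the others at 6.85 to 7.01 (gap over range 0.73). Psmb9 was 8.50 on replicate 3, with the others at 9.04 to 9.11 (gap over range 0.88).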

How the results depend on the processing

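Of the members called between the WT sorts, 2 by the values reported, there was 1 under the replicate block, 4 with array spread as a covariate, 6 within the lower and 5 within the higher background set, 1 without Aim2, Parp9, Parp14 and Samhd1, and 1 to 3 with each array left out. Under the block 3 pathway genes missed the threshold as well, with limma adjusted p of 0.173 for Ifng, 0.123 for Ifi27l2a and 0.0652 for Gbp9. Under it Aim2 passed and Rtp4 did not (-1.08, limma adjusted p = 0.0838); over its alternatives Rtp4 ran from 0.000163 to 0.0857 and Aim2 from 0.00118 to 0.0245. The replicate numbers did not pair the arrays: 10 of 21 pairs with the same number correlated above 0.1 in their deviations from the group means, at -0.52 to 0.41. The median of all members, -0.25, was -0.507 within the lower and 0.129 within the higher background set, and -0.332 to -0.122 with each array left out. In Id2KO against WT, 8 members were called within the higher background set, where 16.7% of all genes were, and 0 to 1 with each array left out, against 0 reported. Its median of 0.356 was 0.184 with quantile normalization, 0.09 with spread as a covariate and 0.307 to 0.418 with each array left out, and Tap1 was at -0.03 with the covariate. The median of the mean Id2 effect, 0.288, was 0.124 with spread. Within the higher background set 1 member each was called for BimKO against WT (Aim2, 1.02), Id2KOBimKO against Id2KO (Rsad2, 2.11) and the interaction (Rsad2, 2.64). The median for Id2KOBimKO against Id2KO, -0.114, was 0.065 with spread, and that of the interaction, -0.161, was 0.014 with quantile normalization and 0.048 with spread. Id2KOBimKO against BimKO had 0 calls throughout and medians of 0.14 to 0.208. The causes of these shifts were not tested. Within a background set most groups have 1 or 2 arrays, a lone array being assumed to vary like the others, and groups of 2 limit what any comparison of the mutants can show.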
